A study of Homo sapiens with 2 samples.

Results

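Immediate early genes are transcribed within minutes of a stimulus without new protein synthesis, and 9 of them were examined at sites of the histone demethylase UTX: EGR1, JUNB, FOS, JUN, EGR2, EGR3, FOSB, IER2 and DUSP1. Each gene was taken as a fixed window of 45 or 50 kb on the hg19 build, and every peak with at least 1 base in a window was counted. The 9 windows held 29 of the 17396 UTX peaks and 1 of the 2678 TAL1 peaks. The genes were selected on UTX peak width in this same library, and the lack of TAL1 near EGR1 and JUNB was known too, so the widths and counts below are a description and carry no test. The name under which the group was proposed, immediate early genes at wide UTX peaks, held for few of its members: 3 windows had a UTX peak over 1 kb, 5 had narrower peaks only, and the EGR2 window had no UTX peak.

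UTX, also called KDM6A, removes methyl groups from lysine residues of histone H3 that mark silenced genes. TAL1, a transcription factor of blood stem cells with a basic helix-loop-helix domain, is switched on abnormally in some T cell acute lymphoblastic leukaemias (T-ALL). EGR1, EGR2 and EGR3 are zinc finger transcription factors induced by growth factors and by the T cell receptor. FOS and FOSB pair with JUN and JUNB to form the AP-1 transcription factor. IER2 is a nuclear protein of the same early response, and DUSP1 is a phosphatase that switches off the MAP kinases that induce these genes.

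The data came from Jurkat, an established human T-ALL cell line, grown without treatment. Chromatin immunoprecipitation followed by sequencing was done once with a mixture of UTX antibodies and once with an isotype IgG as a mock, and the mock library was not analysed here. The TAL1 peak list was taken by the submitters from an earlier study, and the sources used here do not say which cells it came from. Both lists give positions only. With no read counts and 1 UTX library, the depth behind a peak is unknown, width is the only measure of size, and a position missing from a list is not shown to be unbound. Ranges after shares are 95% exact (Clopper-Pearson) binomial intervals, which cover the counting of peaks only.

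The promoters of 4 members are shown first. EGR1, EGR2 and DUSP1 were printed because a promoter of each held a motif shown here in capitals, and IER2 was added afterwards. By UTX, EGR1 had the widest peak and IER2 the next widest. EGR2 had no peak in its window, and DUSP1 had the only TAL1 peak. They are RefSeq sequences of the GRCh38.p14 build, from 250 bases before to 50 bases after an annotated gene start, 5′ to 3′ on the gene's strand. Peaks are on hg19, so whether a peak covers these bases was not determined. Capitals mark the CArG box, which is the core of the serum response element (CC, a run of A or T, GG), and the full cyclic AMP response element TGACGTCA. EGR1 is at chr5:138465229-138465528 on the plus strand. EGR2, shown by the RefSeq start numbered 3 in the motif plot, is at chr10:62816317-62816616 on the minus strand. That start was the one of its annotated starts that held a CArG box. DUSP1 is at chr5:172771146-172771445 on the minus strand, and IER2 at chr19:13150161-13150460 on the plus strand.
EGR1: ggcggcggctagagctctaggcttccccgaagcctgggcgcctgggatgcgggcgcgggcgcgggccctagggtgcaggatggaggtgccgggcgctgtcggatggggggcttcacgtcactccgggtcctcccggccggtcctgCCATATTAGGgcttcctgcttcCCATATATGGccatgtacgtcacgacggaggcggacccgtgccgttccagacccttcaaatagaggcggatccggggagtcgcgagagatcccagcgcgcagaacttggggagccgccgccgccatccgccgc
EGR2: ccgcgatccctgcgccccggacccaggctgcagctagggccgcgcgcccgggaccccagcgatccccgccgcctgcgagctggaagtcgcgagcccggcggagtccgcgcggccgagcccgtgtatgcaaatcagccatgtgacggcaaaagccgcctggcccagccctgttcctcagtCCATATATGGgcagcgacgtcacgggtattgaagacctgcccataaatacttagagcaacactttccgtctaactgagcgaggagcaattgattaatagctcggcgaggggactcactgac
DUSP1: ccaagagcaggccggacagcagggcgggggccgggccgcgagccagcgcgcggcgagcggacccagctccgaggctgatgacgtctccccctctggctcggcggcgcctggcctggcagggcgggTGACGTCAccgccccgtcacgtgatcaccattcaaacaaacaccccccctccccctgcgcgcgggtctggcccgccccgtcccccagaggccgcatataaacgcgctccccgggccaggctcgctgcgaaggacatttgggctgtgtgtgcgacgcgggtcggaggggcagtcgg
IER2: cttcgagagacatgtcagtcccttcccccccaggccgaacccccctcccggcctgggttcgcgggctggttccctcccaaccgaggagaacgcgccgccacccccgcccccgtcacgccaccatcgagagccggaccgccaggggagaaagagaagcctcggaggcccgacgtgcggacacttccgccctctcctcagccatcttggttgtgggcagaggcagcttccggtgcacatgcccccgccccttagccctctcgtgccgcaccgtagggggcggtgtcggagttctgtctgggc

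The EGR1 promoter held 2 CArG boxes, CCATATTAGG and CCATATATGG, whose first bases lay 105 and 83 bases before the gene start. The EGR2 promoter held CCATATATGG, beginning 71 bases before the start. The DUSP1 promoter held TGACGTCA, beginning 125 bases before the start. The IER2 promoter had no capitals, and it was added to the others after the values had been seen. Since the others were printed for holding these motifs, their presence there was fixed in advance and is not a result.

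The EGR1 window carried the widest UTX peak of the 9 genes. The peak, at chr5:137800875-137806674, measured 5800 bases and ranked at position 12 of the 17396 UTX peaks by width. The peaks next to it in that ranking measured 6076 and 5290 bases. A second EGR1 peak of 817 bases, at chr5:137799498-137800314, ended 560 bases before the wide one. Another of 238 bases, at chr5:137795034-137795271, lay a further 4.23 kb away and was narrower than the median of the list. The wide peak alone made up 30.5% of the 18990 bases in the 29 UTX peaks. In the RefSeq order of protein-coding genes on GRCh38.p14, EGR1 lies between REEP2 and ETF1.

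EGR2 and EGR3 did not share this pattern. The EGR2 window, chr10:64550000-64600000, held 0 UTX peaks, and the nearest one, 277 bases at chr10:64441175-64441451, lay 109 kb from its edge. Within 500 kb of the middle of that window there were 3 UTX peaks and 0 TAL1 peaks. The EGR3 window held 2 UTX peaks, of 233 bases at chr8:22551007-22551239 and of 532 bases at chr8:22562278-22562809, separated by 11.0 kb. The 3 EGR genes thus ranged from no UTX peak to a peak of 5800 bases.

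IER2 had the next widest UTX peak, and most of its UTX peaks lay close together. The peak at chr19:13265125-13267255 measured 2131 bases and ranked at position 56. Before it lay peaks of 134, 516 and 827 bases, at chr19:13262423-13262556, chr19:13262698-13263213 and chr19:13263279-13264105, with 141, 65 and 1019 bases between successive peaks of the 4. These 4 peaks filled 3608 of the 4833 bases from the first to the last of them. The narrowest, of 134 bases, was among the narrowest of the whole UTX list, at rank 17368. Farther out in the window were peaks of 418 and 459 bases, at chr19:13275289-13275706 and chr19:13278305-13278763. In the RefSeq order IER2 lies between STX10 and CACNA1A, and no peak was assigned to a gene here.

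**Figure D1:**
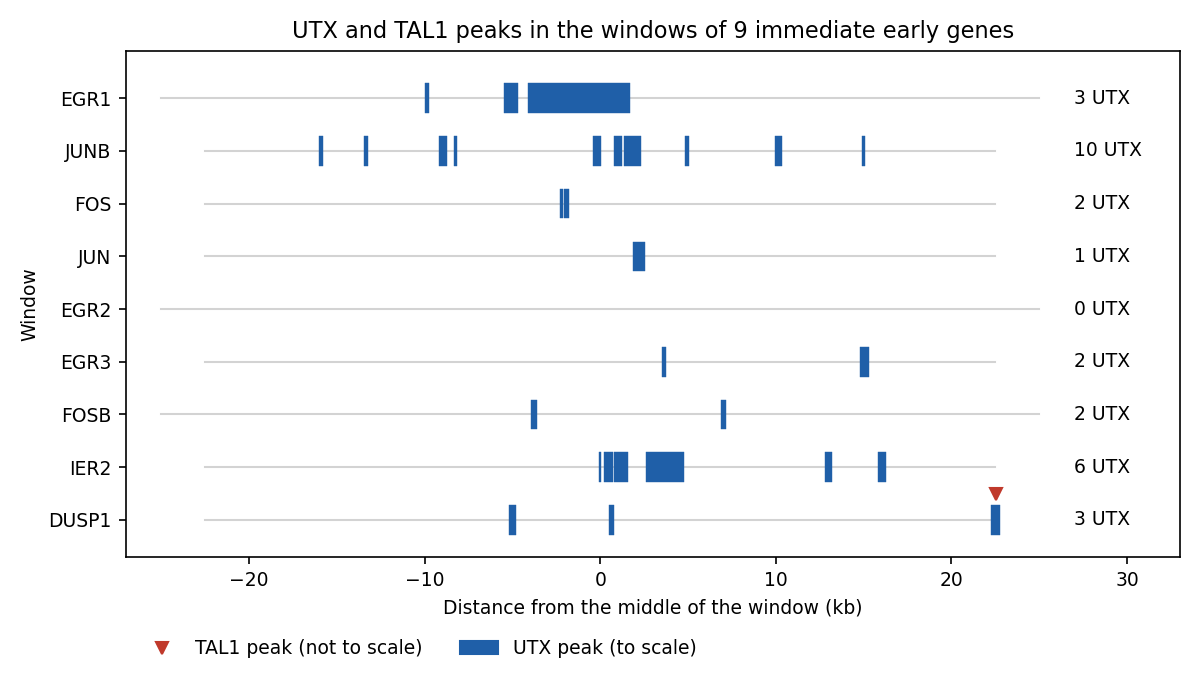
UTX peaks (blue bars, to scale) and the TAL1 peak (red triangle) along the 9 windows, each placed by distance in kb from the middle of its window (grey line). EGR1 shows a wide bar of 5800 bases, JUNB and IER2 show 10 and 6 UTX peaks, EGR2 shows none, and the TAL1 peak sits at the edge of the DUSP1 window.

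The JUNB window had the most UTX peaks, and their widths were ordinary for the list. It held 10 peaks of 181 to 1006 bases, which spanned 31.1 kb, and 5 of them were wider than the list's median of 320 bases. The widest, at chr19:12903829-12904834, measured 1006 bases at rank 367, only just over 1 kb. It lay 61 bases from a peak of 504 bases at chr19:12903264-12903767, which in turn lay 743 bases from a peak of 416 bases at chr19:12902105-12902520. The other 7 JUNB peaks measured 181 to 438 bases. JUNB lies between HOOK2 and PRDX2 in the RefSeq order, and none of the 10 peaks was assigned to a gene.

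JUN, which encodes the other JUN protein of the group, had a single UTX peak. That peak, at chr1:59249368-59250057, measured 690 bases and ranked at position 1336, within the widest 7.68% of the list. The next UTX peak lay 28.2 kb away. The JUN window thus had the fewest peaks of the 8 windows with UTX, but that peak was wider than any at FOS, FOSB, EGR3 or DUSP1.

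The FOS and FOSB windows held 2 UTX peaks each, all of modest width. At FOS the peaks measured 180 and 270 bases, at chr14:75745209-75745388 and chr14:75745463-75745732, and lay 74 bases apart. Joined, they would cover 524 bases. At FOSB the peaks measured 330 and 271 bases, at chr19:45971064-45971393 and chr19:45981864-45982134, and lay 10.5 kb apart. Of these 4 peaks, FOSB's peak of 330 bases was the one above the list's median of 320 bases.

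DUSP1, the phosphatase of the group, had 3 UTX peaks of 418, 294 and 517 bases. They lay at chr5:172192290-172192707, chr5:172198006-172198299 and chr5:172219741-172220257. The last crossed the end of the window by 257 bases and was 21.4 kb from the middle one.

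The 29 UTX peaks as a set had a somewhat larger median width than the list, and that difference in medians rested mostly on the IER2 window. Their median width was 418 bases (quartiles 239 and 517) against 320 bases (quartiles 230 and 457) for the other UTX peaks, a difference of 98 bases. Without the IER2 window the median of the 23 remaining peaks was 330 bases, a difference of 10 bases. Peaks over 1 kb numbered 3 of 29 (10.3%, 2.19 to 27.4%), against 2.15% of all UTX peaks. Peaks over 500 bases numbered 10, in 6 windows, against 19.7% of all UTX peaks. Because the windows were chosen with these widths known, nothing is read from that comparison. The member nearest above 1 kb was the JUNB peak of 1006 bases, and the nearest below were the peaks of 827 bases at IER2 and 817 bases at EGR1. The EGR1, JUNB and IER2 windows held 19 of the 29 peaks and 80.3% of their bases. In the other 5 windows with UTX, the widest peak measured 270 to 690 bases.

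**Figure D2:**
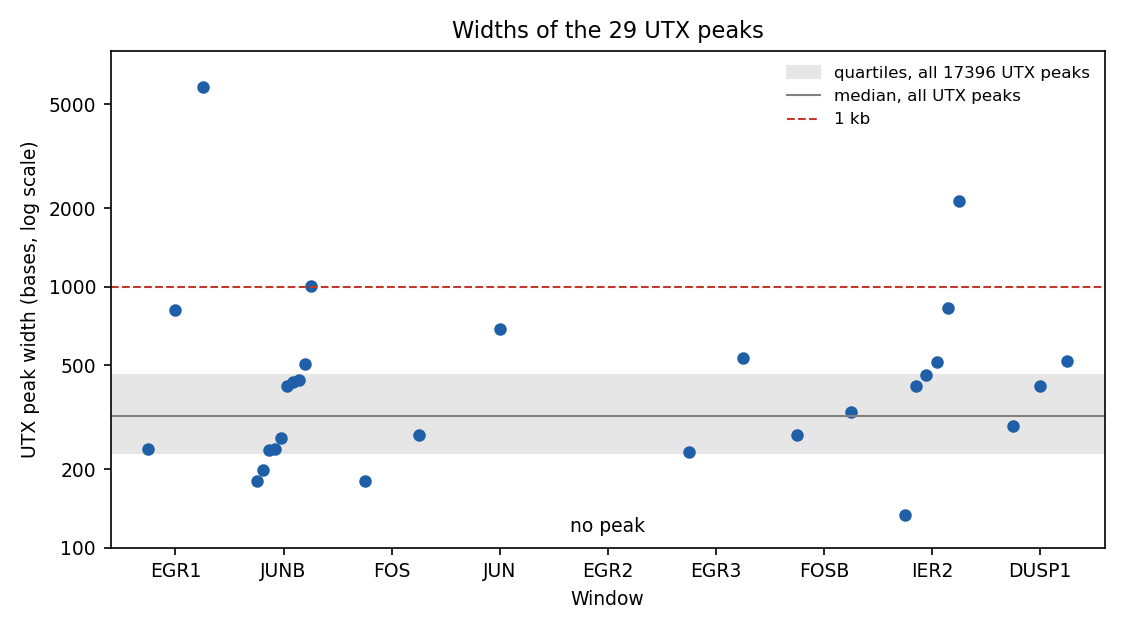
Width of each of the 29 UTX peaks by window (points, log axis), with the median and quartiles of all 17396 UTX peaks in grey and 1 kb as a dashed line. The line at 1 kb is exceeded by 1 peak each at EGR1, JUNB and IER2, and EGR2 has no point.

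Set beside the genome at large, the EGR1, IER2 and JUNB windows had more of their bases in UTX peaks than nearly all UTX-bearing stretches, the other 5 windows with UTX had 1.000 to 2.16%, and EGR2 had none. The 24 chromosomes were divided into 61109 tiles of 50 kb, of which 11310 (18.5%) held a UTX peak. Those tiles held a median of 1 UTX peak and had a median of 0.800% of their bases in UTX peaks (quartiles 0.506 and 1.39%). The share was 13.7% in the EGR1 window, a value reached by 11 of the 11310 tiles. It was 9.97% at IER2, reached by 24 tiles, and 8.70% at JUNB, reached by 39. The 10 peaks of JUNB were matched or exceeded by 8 tiles and the 6 of IER2 by 103, whereas the 3 of EGR1 were matched by 1424. The EGR1 window thus stood high by width and the JUNB window by number. The genes were selected on UTX width in this same library, so these places describe the windows and are no test. The share was 2.16% at DUSP1, 1.70% at EGR3, 1.53% at JUN, 1.20% at FOSB and 1.000% at FOS, values reached by 11.7%, 18.3%, 21.5%, 30.8% and 39.0% of the tiles. DUSP1, EGR3 and JUN were thus above the tiles' upper quartile, and FOSB and FOS between the median and that quartile. The windows were placed around genes and the tiles at fixed steps, so a tile edge can cut a peak and lower a tile's values. Tiles that overlap the gene windows were not left out, so these counts can include tiles that hold the windows' own peaks, as for IER2.

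**Figure D3:**
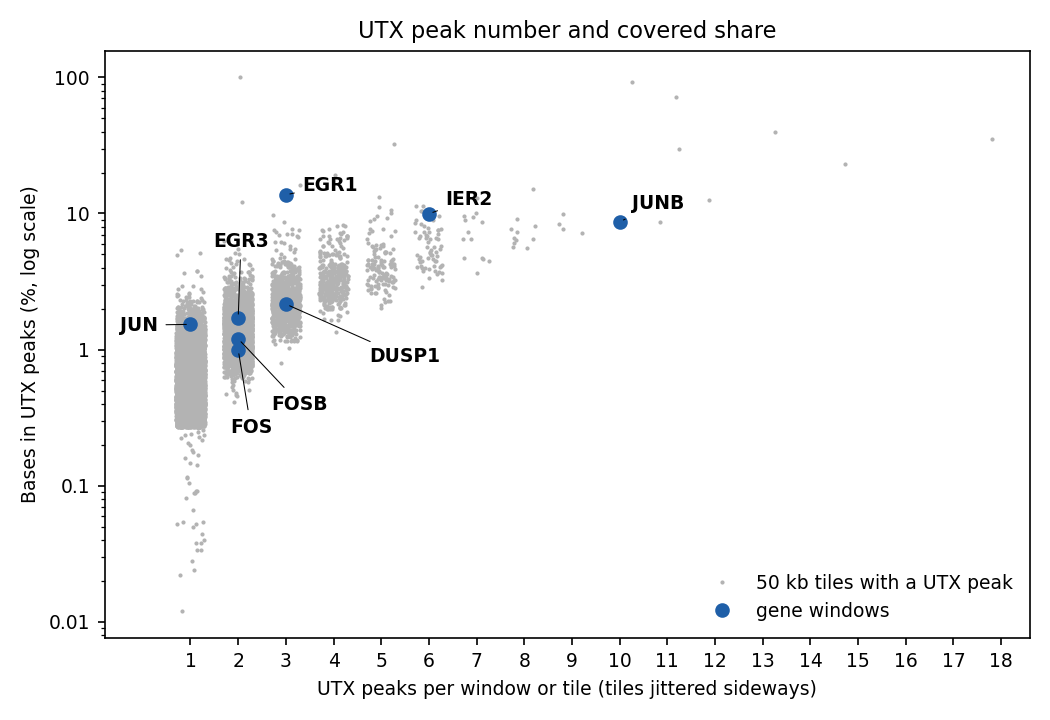
Number of UTX peaks (horizontal axis) and percent of bases in UTX peaks (vertical axis, log scale) in the 11310 tiles of 50 kb with a UTX peak (grey, jittered sideways) and in the 8 gene windows with UTX (blue). EGR1, IER2 and JUNB lie at 13.7%, 9.97% and 8.70%, and the other 5 windows between 1.000% and 2.16%.

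The 3 tiles most like the EGR1 window in peak number, covered share and widest peak lay on chromosomes 11, 2 and 7. None held a TAL1 peak, where 33.1% of the 317 tiles with a UTX peak over 1 kb did, and nothing is read from 3 tiles. Likeness was the sum of the absolute log2 ratios of these 3 quantities, where 0 is identity, over the 1 UTX library. The closest was chr11:65250001-65300000, with 4 UTX peaks, a widest peak of 5276 bases and a score of 1.04. Next were chr2:128400001-128450000, with 3 peaks, a widest of 11426 bases that reaches beyond the tile, and a score of 1.22, and chr7:5550001-5600000, with 5 peaks, a widest of 3843 bases and a score of 1.38. The chr2 peak of 11426 bases held 1 TAL1 peak, in its part outside that tile.

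Several members had their UTX peaks in close runs. Of the 29 peaks, 9 (31.0%, 15.3 to 50.8%) had another UTX peak within 500 bases, against 9.02% of all UTX peaks. These 9 lay at JUNB (4), IER2 (3) and FOS (2). Within 10 kb, 23 of 29 (79.3%, 60.3 to 92.0%) had another UTX peak, against 40.9% of the list. Both measures come from the same list as the widths and were not tested. Peaks of 1 window share their locus, so they are not independent of each other.

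JUNB, IER2 and FOSB lie on chromosome 19, which contributed 18 of the 29 peaks. The JUNB and IER2 windows are 315 kb apart. The stretch between them held 8 more UTX peaks, 1 of them over 1 kb, and 3 TAL1 peaks. Its UTX peaks numbered 1.27 per 50 kb, against 0.748 per 50 kb over the whole chromosome. Over all of chromosome 19, 11.6% of UTX peaks had another within 500 bases and 3.64% were over 1 kb. For the 18 members there the shares were 38.9% (17.3 to 64.3%) and 11.1% (1.38 to 34.7%). The genes were chosen with UTX widths known, and peaks of 1 window share their locus. These intervals are therefore no test against the shares of the chromosome. The part that the dense chromosome has in the values of the set was not tested. The median width was 417 bases for the members on chromosome 19 and 418 bases for the 11 on the other chromosomes.

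TAL1 was called at 1 of the 29 UTX peaks. The TAL1 peak, 156 bases at chr5:172219961-172220116, lay whole inside the DUSP1 peak of 517 bases, with 39.5 bases between the centres. Its width was near the TAL1 median of 147.5 bases. Both peaks cross the end of the DUSP1 window, and the other DUSP1 UTX peaks lay 21.7 and 27.3 kb from it. The share of members with TAL1 was 3.45% (0.0873 to 17.8%), beside 12.1% of all UTX peaks. The 2 shares were not compared further, since the lack of TAL1 at EGR1 and JUNB was known beforehand and peaks of 1 window share their locus. On chromosome 19, 0 of the 18 members held TAL1 (0 to 18.5%), against 6.61% of all 878 UTX peaks there. Away from it, 1 of 11 did (9.09%, 0.230 to 41.3%), against 12.4%.

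None of the 3 members over 1 kb, at EGR1, JUNB and IER2, held a TAL1 peak (0 of 3, 0 to 70.8%). Among all UTX peaks over 1 kb, 80 of 374 (21.4%) did. Nothing is read from 3 peaks. Of the 8 windows with UTX, 1 held a TAL1 peak, and the EGR2 window held none either, against 18.5% of the tiles with a UTX peak and 38.9% of the 1424 tiles with 3 or more UTX peaks. EGR1, JUNB, IER2 and DUSP1 are the windows with 3 or more UTX peaks, and of these DUSP1 had TAL1.

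The windows differed widely in how far the nearest TAL1 peak lay. JUN came next after DUSP1: a TAL1 peak of 203 bases at chr1:59220616-59220818 lay 4.18 kb outside its window and 28.5 kb from its UTX peak. For IER2 the nearest, of 109 bases at chr19:13213583-13213691, was 26.3 kb from the window and 51.4 kb from the peak of 2131 bases. The nearest TAL1 peak was 100.0 kb from the JUNB window, 160 kb from EGR1, 206 kb from EGR3, 529 kb from FOS, 606 kb from EGR2 and 1386 kb from FOSB. FOSB was the window without a TAL1 peak within 1 Mb of its middle, although 32 UTX peaks lay in that range. The 5 windows of EGR1, EGR3, FOS, EGR2 and FOSB had no TAL1 peak within 150 kb. Such distances are usual in the list: measured from the peak, the median over all UTX peaks was 162 kb. In 7 of the 9 cases the nearest TAL1 peak lay in a UTX peak, near the 80.8% of all TAL1 peaks that did; the exceptions were FOS and IER2.

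**Figure D4:**
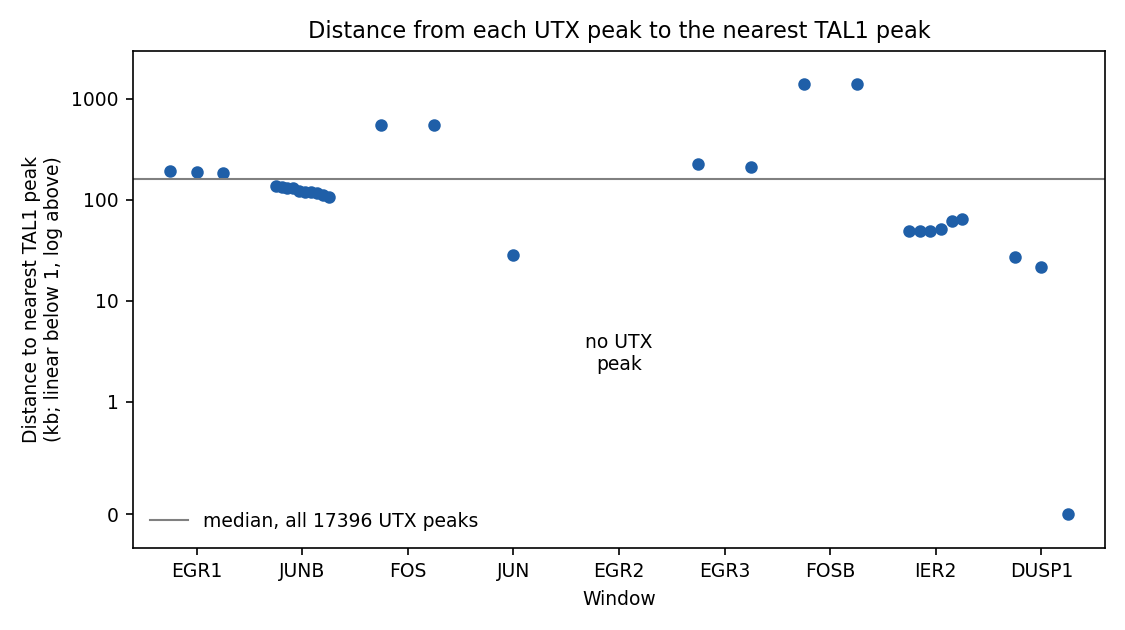
Distance in kb from each of the 29 UTX peaks to the nearest TAL1 peak (points, linear below 1 kb and log above), by window, with the median of all UTX peaks as a grey line at 162 kb. A DUSP1 peak sits at 0, and the FOSB peaks lie highest at 1407 and 1418 kb.

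Over all 29 peaks, these distances were not set apart from those of the list by any test, and the values are given side by side. The median distance from a member to the nearest TAL1 peak was 121 kb, against 162 kb for all UTX peaks. Of the 29 members, 10 (34.5%, 17.9 to 54.3%) lay within 100 kb of a TAL1 peak, against 41.4% of the list. EGR1, EGR3, FOS and FOSB lay beyond the median of the list, and JUNB, JUN, IER2 and DUSP1 were nearer than it.

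Most of the member promoters that were found held the same short motif. RefSeq promoters were found for 8 of the 9 genes, 10 promoters in all, since EGR2 has 3 annotated starts; EGR3 was not matched. The core of the cyclic AMP response element, TGACG on either strand, occurred in 8 of the 10 promoters, against 24.6% of the 35116 RefSeq promoters of the same length. At least 1 promoter of each of the 8 genes held it, while the EGR2 starts numbered 1 and 2 did not. The first base of the match lay 64 bases before the start at FOS, 60 at FOSB, 123 at JUN, 137 at JUNB and 140 at IER2. EGR1 and the EGR2 start shown above had 2 matches each, and DUSP1 had 4, of which 2 are the overlapping strands of its TGACGTCA. The core thus occurred both where the UTX peaks were wide and at EGR2, where none was called. Member promoters were also richer in G and C, with a median of 67.0% against 58.7%, and held a median of 29.5 CG pairs against 14. The core contains a CG pair, and the part of base composition in its frequency was not tested.

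Other motifs were less evenly spread. The CArG box, searched by its name's pattern on both strands, was in 2 of 10 promoters (EGR1 and EGR2) against 1.29% of all. TGACGTCA was in 1 (DUSP1) against 1.85%. The TATA box TATAAA was in 4 (JUNB, FOS, FOSB and DUSP1) against 11.5%. The E-box CAGATG was in 1 (FOS) against 14.7%, and CAGCTG in 1 (EGR2) against 17.9%. GATA was in 2 (JUN and EGR2) against 49.7%, and the ETS core CCGGAA in 2 (FOSB and IER2) against 17.2%. The AP-1 site TGANTCA, the EGR sites GCGGGGGCG and GCGTGGGCG, and the RUNX core TGTGGT were in 0 of 10, against 7.71%, 5.77% and 13.1%. TGACG is part of TGACGTCA, so these 2 counts overlap. A match describes the letters of the promoter sequence and is not a measured binding site. The search ran only from 250 bases before to 50 bases after each gene start. A gene without a match can therefore hold the motif farther away.

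**Figure D5:**
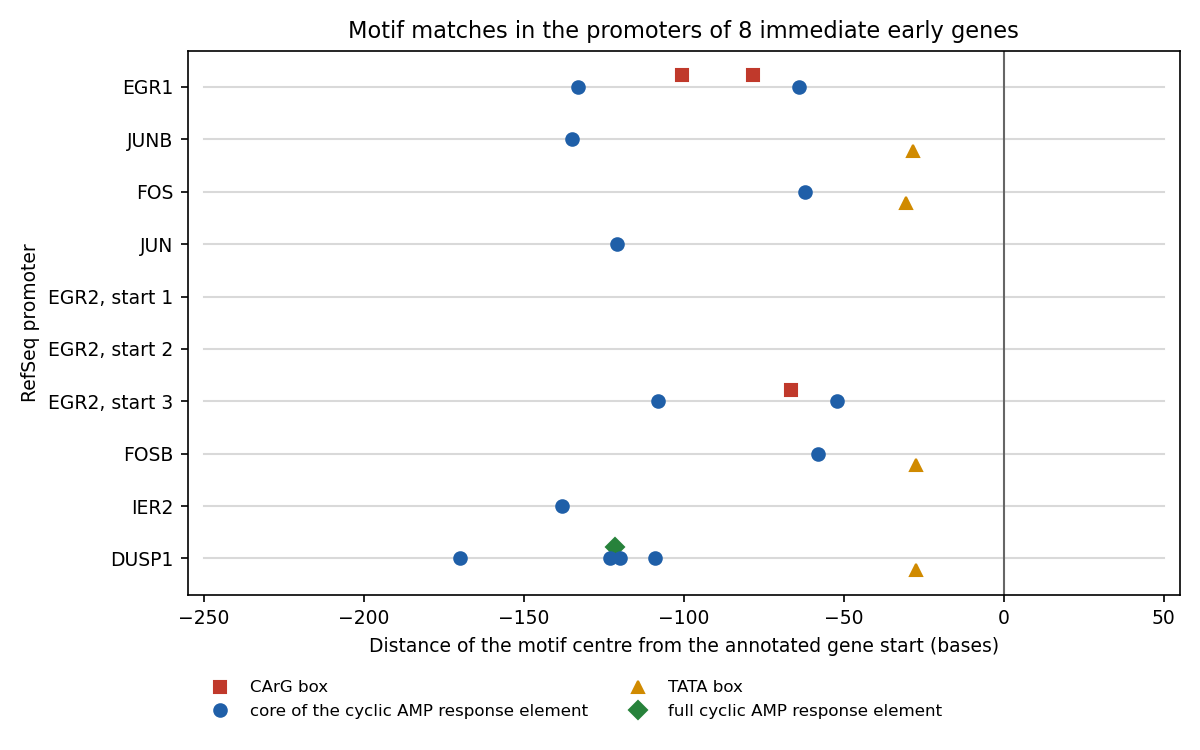
Positions of CArG boxes, full cyclic AMP response elements, their cores and TATA boxes in 10 RefSeq promoters of 8 genes, as the distance in bases of the motif's centre from the annotated gene start. Each promoter runs from 250 bases before to 50 bases after that start, and motifs farther away were not searched. The core appears for all 8 genes, while CArG boxes appear at EGR1 and at 1 EGR2 start.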

How the data were processed

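The UTX list of 1 library and the TAL1 list of the series were used whole. The tools MACS2 2.0.10, BWA 0.6.2 and SAMtools 0.1.18 and the build hg19 appear in the submitters' processing notes. The order of steps, any use of the mock as control and the peak threshold are not stated there. The authors took the TAL1 sites from an earlier study (series design text), whose caller and threshold the sources used here do not state. Both deposited files hold 3 columns with the chromosome and limits of each peak, with no score or read count. The TAL1 list is taken to be on hg19 as well. Positions are printed counted from 1.

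Widths, overlaps of at least 1 base, distances between nearest edges and tile values were computed in Python 3.11.15 with numpy 2.4.6 and scipy 1.17.1, and drawn with matplotlib 3.10.9. The interval steps were checked on simulated lists. Tiles ran from position 1 to the last peak of a chromosome; assembly gaps were not removed. No p-value was computed, since there are no replicates.

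The 9 genes, their windows, the gene lists and the motifs were chosen with earlier results of these data known. The rule for named sites took the widest UTX peak of each window, all over 1 kb, all TAL1 peaks in a window or nearest to it, and the 3 tiles most like the window with most UTX-covered bases. Other peaks were added afterwards. A list of further immediate early genes was not examined, because an hg19 annotation was not used; RefSeq tables on GRCh38.p14 served for gene order and promoters only.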

Additional observations from a re-analysis of the deposited data

How the results depend on the processing

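Of 47 values computed under other settings, 29 were the same as reported, within 1.5 times for counts, or within the reported share's own 95% interval. The number of UTX peaks in the windows was 22 with windows shortened by 10 kb at both ends, 32 with windows extended by 10 kb, and 17 when the UTX list was reduced to its wider 50%. Peaks over 1 kb numbered 3 (2.15% of all UTX peaks pass this limit). They numbered 10 with the limit at 500 bases (19.7% pass it) and 2 at 2 kb (66 of all 17396 pass it). After peaks no more than 500 bases apart were joined, 5 were over 1 kb. Joining made the widest peak 1571 bases at JUNB and 524 bases at FOS. The share over 1 kb in the whole list after joining was not computed, so nothing is read from the 5. TAL1 peaks were in 1 window, in 0 with shortened windows, which leave out the edge of the DUSP1 window, and in 2 with extended ones, which add JUN. The share of UTX peaks with TAL1 was then 0% and 6.25%, against 3.45% as reported and under the other overlap rules. It was 5.88% with the wider UTX peaks alone. Shortened windows also left a widest peak of 233 bases at EGR3 and 418 bases at DUSP1. The median covered length per window, 765 bases, was 690 bases with shortened and 1308 bases with extended windows; per tile with UTX it was 400 bases, and 404 bases with tiles moved by 25 kb. The median UTX width exceeded that of the other UTX peaks by 98 bases, by 58 bases in the wider 50% of the list, and by 10 to 98 bases when each window was left out in turn; the lowest value was without IER2. No paired analysis was possible because there is a single UTX library. These settings leave the peak threshold and the depth of both lists unknown, which limits what counts as without UTX or TAL1.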
